A study of Homo sapiens with 4 samples.

Results

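The genes described here are the 4 ID genes (ID1, ID2, ID3 and ID4) and 4 genes that act around the BMP branch of SMAD signalling (SMAD6, SMAD7, SMAD9 and BAMBI). They were chosen by name, with earlier results of these data known. Every probe set annotated to exactly 1 of these symbols was taken, with the brightest probe set standing for its gene. All 8 genes were measured, out of 19775 genes on the arrays, with 17 probe sets among them. RNA came from AGS, a human gastric adenocarcinoma line, on 4 single-colour expression arrays. The control group was AGS with wild-type PRMT6 (n = 2 arrays), and the other group was AGS after PRMT6 knockout (n = 2 arrays). The enzyme PRMT6 adds methyl groups to arginine 2 of histone H3, a mark whose role in gastric cancer progression is the subject named by the series title. Knockout cells had received a lentiviral Cas9 vector with a guide against PRMT6 and puromycin, and were grown out as clones by limiting dilution, per the labels' protocols. Which clone each knockout array came from, and whether control cells carried a vector or were cloned, is not given in the sources used here. An effect of PRMT6 loss and a property of the selected clone therefore cannot be told apart. Nothing in the labels says that the arrays of a group came from separate cultures, so p-values measure the spread between these arrays, which may be technical.

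BMP ligands bind receptor kinases that phosphorylate SMAD1, SMAD5 and SMAD9, and these enter the nucleus with SMAD4 to switch on target genes. The ID genes are among the earliest of those targets in many epithelia. ID proteins carry a helix-loop-helix domain without the basic region that contacts DNA, so they bind E proteins (TCF3, TCF4 and TCF12) and keep them and their tissue-specific partners off DNA. SMAD6 and SMAD7 are inhibitory SMADs induced by the pathway as feedback, and BAMBI is a pseudoreceptor without a kinase domain that blocks receptor complexes.

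In the PRMT6-knockout cells ID1 and ID3 rose about 4- to 5-fold, and ID2 and SMAD7 rose by less than 2-fold. BAMBI fell by 0.38 on the log2 scale. ID4, SMAD6 and SMAD9 did not pass the test. Of the 8 genes, 4 were called higher and 1 lower (limma, adjusted p below 0.05), where 24% of all 19775 genes passed, 12.4% higher and 11.5% lower. By 2-fold or more, 2 of the 8 rose (ID1 and ID3), where 1.3% of all genes did. As the 8 were chosen with earlier results of these data known, these shares describe them and test nothing about the family.

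The windows just upstream of the ID genes are shown because 3 of the 4 rose together while ID4 did not pass the test. Those of BAMBI, which fell, and SMAD6 are shown because they hold the SMAD-type motifs. Each is the 250 bases before the annotated start (RefSeq, GRCh38.p14), on the gene's own strand, 5′ to 3′. Capitals mark any of 4 motifs on either strand: GGCGCC, the GC-rich element of SMAD1 and SMAD5; GTCTAGAC, the palindromic SMAD element; ATTGG, the CCAAT box; and TATAAA, the TATA box.
ID1, chr20:31605039-31605288 (+): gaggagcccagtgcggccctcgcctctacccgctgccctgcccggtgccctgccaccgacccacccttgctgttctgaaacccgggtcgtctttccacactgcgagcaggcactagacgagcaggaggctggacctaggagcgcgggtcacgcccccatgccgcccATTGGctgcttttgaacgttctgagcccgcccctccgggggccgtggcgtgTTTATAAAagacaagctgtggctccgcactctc
ID2, chr2:8681806-8682055 (+): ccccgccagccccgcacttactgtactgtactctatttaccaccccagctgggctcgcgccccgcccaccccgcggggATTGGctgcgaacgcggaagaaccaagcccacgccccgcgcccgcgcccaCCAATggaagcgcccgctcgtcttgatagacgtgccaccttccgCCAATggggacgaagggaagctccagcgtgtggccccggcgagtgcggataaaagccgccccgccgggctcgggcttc
ID3, chr1:23559502-23559751 (-): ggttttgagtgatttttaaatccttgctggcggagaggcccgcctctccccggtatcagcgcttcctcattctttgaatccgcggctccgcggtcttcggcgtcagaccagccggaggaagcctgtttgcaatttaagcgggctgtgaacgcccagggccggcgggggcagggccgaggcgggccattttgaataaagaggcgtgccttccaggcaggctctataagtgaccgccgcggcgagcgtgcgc
ID4, chr6:19837120-19837369 (+): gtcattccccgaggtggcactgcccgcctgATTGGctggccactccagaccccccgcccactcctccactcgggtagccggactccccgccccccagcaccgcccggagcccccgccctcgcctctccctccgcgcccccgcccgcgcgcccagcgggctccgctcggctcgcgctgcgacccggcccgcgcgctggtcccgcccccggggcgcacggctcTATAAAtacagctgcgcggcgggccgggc
BAMBI, chr10:28677271-28677520 (+): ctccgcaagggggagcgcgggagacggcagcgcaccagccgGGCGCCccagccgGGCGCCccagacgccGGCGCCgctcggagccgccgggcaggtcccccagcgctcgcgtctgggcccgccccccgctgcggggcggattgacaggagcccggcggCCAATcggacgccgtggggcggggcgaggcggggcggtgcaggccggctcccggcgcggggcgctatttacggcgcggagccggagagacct
SMAD6, chr15:66701986-66702235 (+): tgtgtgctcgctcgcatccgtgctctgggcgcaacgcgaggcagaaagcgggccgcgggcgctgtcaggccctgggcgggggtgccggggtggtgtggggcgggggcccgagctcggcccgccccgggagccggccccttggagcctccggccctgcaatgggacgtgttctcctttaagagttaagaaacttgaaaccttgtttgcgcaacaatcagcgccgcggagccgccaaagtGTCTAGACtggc

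All 8 genes had a promoter in the RefSeq table, with 10 windows in all because SMAD7 has 3 annotated starts. No ID window held GGCGCC or GTCTAGAC. BAMBI, which fell, held GGCGCC 3 times, the nearest copy beginning 181 bases before its start, and 16.4% of all 35116 promoter windows of this length held the motif. SMAD6 held GTCTAGAC once, beginning 12 bases before its start, against 0.182% of all windows. The CCAAT box was present in ID1, ID2 (3 copies), ID4 and BAMBI, against 32.0% of all windows. TATAAA was present in ID1, ID4 and 1 of the SMAD7 windows, against 10.7%; in ID1 it overlapped its own reverse complement TTTATA. ID3 held none of the 4 motifs. The motifs were picked with the measured differences and the windows already seen. A match describes letters in this window only, and elements farther upstream were not searched.

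ID1 was the member with the largest difference. Its log2 intensity was 10.00 and 10.06 on the control arrays and 12.26 and 12.40 on the knockout arrays. Both knockout arrays lay more than 2 log2 units above both controls, far outside the spread within either group. On the log2 scale the rise was 2.31 (SE 0.09, 95% confidence interval 2.08 to 2.53), or 4.95-fold (adjusted p = 0.00034, limma). It ranked 36 among all 19775 genes ordered from the largest rise. ID1 was read by 1 probe set.

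ID3 behaved in the same direction. Control arrays gave 8.14 and 8.05 and knockout arrays 10.07 and 10.25, with no overlap. The rise was 2.07 (SE 0.10, 95% confidence interval 1.82 to 2.31), or 4.19-fold (adjusted p = 0.00051, limma), and it ranked 54 among all genes ordered from the largest rise. ID3 too was read by 1 probe set. The intervals of the ID1 and ID3 differences overlap, and the difference between them was not tested.

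ID2 rose by less. Its brightest probe set gave 10.41 and 10.39 on control arrays and 11.24 and 11.26 on knockout arrays. The groups did not overlap, and arrays of a group lay within 0.03 of each other. The rise was 0.85 (SE 0.07, 95% confidence interval 0.66 to 1.04), or 1.80-fold (adjusted p = 0.0023, limma). The other ID2 probe set gave 8.59 and 8.71 in control and 9.46 and 9.44 in knockout cells, a rise of 0.80 (adjusted p = 0.0098, limma over all probe sets). The interval of ID2 lies wholly below those of ID1 and ID3; different probe sets need not respond alike, and this difference was not tested. With either knockout array left out the ID2 call was lost, at an adjusted p of 0.053 without knockout 1 and 0.056 without knockout 2, while its value stayed at 0.86 and 0.84.

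ID4, the family member with 5 probe sets, did not pass the test. Its brightest probe set read 5.72 and 5.73 on control arrays and 5.66 and 5.90 on knockout arrays, so the groups overlapped. The difference was 0.05 (SE 0.10, 95% confidence interval -0.21 to 0.32; adjusted p = 0.78, limma). Rises as large as that of ID2 lie outside this interval for this probe set. By its ID it is not gene-specific, so the interval may not bound the change of ID4 alone. The brightest gene-specific probe set read 4.45 and 4.47 (control and knockout means), a difference of 0.02. The other 4 probe sets differed by -0.10 to 0.05, and 3 of the 5 had group means between 1.98 and 2.40, near the lowest value on the arrays (1.64). Detection calls were not used here, so it is not known whether ID4 exceeded background, and a change in a transcript below background could not be seen.

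**Figure D1:**
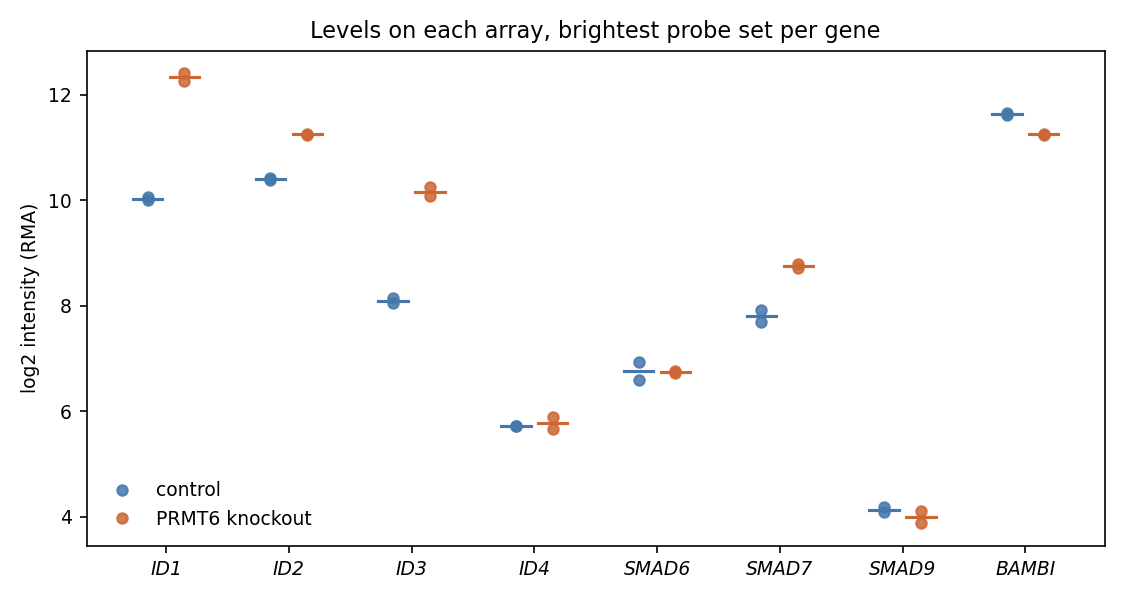
Log2 intensity (RMA) of the 8 genes on each array, with 1 point per array and a bar at the mean of each group (n = 2 control in blue, n = 2 PRMT6 knockout in orange). Knockout arrays lie above the controls for ID1, ID2, ID3 and SMAD7 and below them for BAMBI, and the groups overlap for ID4, SMAD6 and SMAD9; heights are not comparable between genes, because probe sets differ in brightness.

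SMAD7, an inhibitory SMAD that recruits ubiquitin ligases to the receptors of both the BMP and TGF-beta branches, rose, as ID1, ID2 and ID3 did. Control arrays gave 7.92 and 7.69 and knockout arrays 8.72 and 8.80. The control arrays stood 0.23 apart, but the groups did not overlap. The rise was 0.95 (SE 0.11, 95% confidence interval 0.68 to 1.22), or 1.93-fold (adjusted p = 0.0039, limma). With knockout 1 left out it was 0.99 (adjusted p = 0.065) and with knockout 2 left out 0.91 (0.074), so this call too rested on both knockout arrays. SMAD7 was read by 1 probe set.

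SMAD6, the inhibitory SMAD that acts mainly on the BMP branch, did not pass the test. Control arrays read 6.60 and 6.93 and knockout arrays 6.77 and 6.72. Both knockout values lay between the controls. The difference was -0.03 (SE 0.13, 95% confidence interval -0.35 to 0.30; adjusted p = 0.92, limma). The other 3 probe sets gave -0.06, 0.08 and -0.05. Their group means lay between 4.31 and 5.38, below the median gene's mean of 5.97, and whether they exceeded background is not known. A rise of the size seen for SMAD7 lies outside the interval of the brightest SMAD6 probe set, which is not gene-specific by its ID.

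BAMBI, the pseudoreceptor, fell. Control arrays gave 11.65 and 11.62 and knockout arrays 11.26 and 11.24. The groups did not overlap and arrays of a group differed by at most 0.03. The difference was -0.38 (SE 0.07, 95% confidence interval -0.57 to -0.19), or 1.30-fold lower (adjusted p = 0.020, limma). Without any 1 of the arrays the value was -0.40 to -0.37 and BAMBI was no longer called: the adjusted p was 0.075 without control 1, 0.071 without control 2, 0.13 without knockout 1 and 0.14 without knockout 2. Setting arrays to equal means of reference genes moved the value to -0.63, with the call kept.

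SMAD9, a receptor-activated SMAD of the BMP branch that is also a target of the pathway, was dim. Its brighter probe set read 4.18 and 4.09 in control and 3.88 and 4.11 in knockout cells, and the groups overlapped. The difference was -0.14 (SE 0.11, 95% confidence interval -0.41 to 0.13; adjusted p = 0.42, limma), and it ran from -0.26 without knockout 2 to -0.029 without knockout 1. Its dimmer probe set, which is the gene-specific one, read 3.21 and 3.19 in control and 2.60 and 2.81 in knockout cells, a difference of -0.50 (adjusted p = 0.044, limma over all probe sets, where 13.1% of probe sets passed). The call of SMAD9 therefore depended on the probe set: with the gene-specific one in its place, the fit over genes gave an adjusted p of 0.024. It was also called lower under reference gene scaling (-0.39, adjusted p = 0.034). Both probe sets lay below the median gene's mean of 5.97, and whether either exceeded background is not known.

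**Figure D2:**
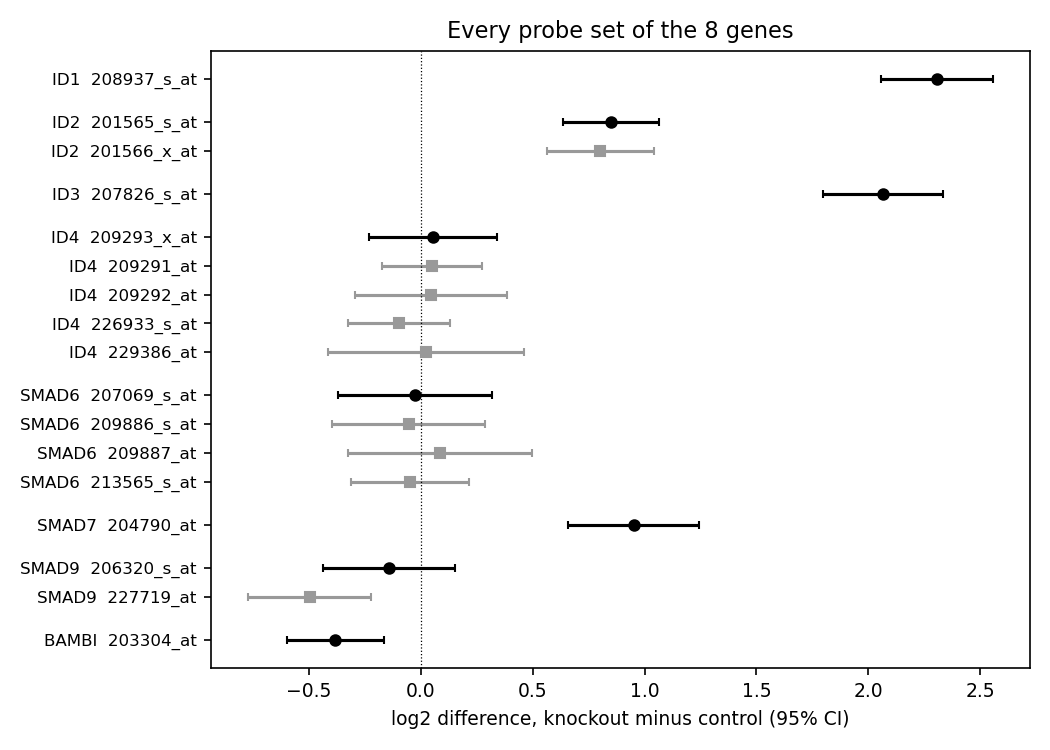
Log2 difference, knockout minus control, of all 17 probe sets with 95% confidence intervals from limma fitted over all probe sets (n = 2 arrays a group). Black circles mark the brightest probe set of a gene and grey squares the others; both ID2 probe sets lie near 0.8, the ID4 and SMAD6 probe sets lie around 0, and the SMAD9 probe sets lie at -0.14 and -0.50.

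Among 5 genes whose groups did not overlap, 4 had knockout arrays above and 1 had them below the controls; the groups did not overlap for 58.2% of all genes, 29.1% in each direction. The median difference of the 8 genes was 0.45 on the log2 scale, against -0.01 over all genes. Without control 1 or without control 2 the same 4 genes stayed called as higher (13.3% and 11.3% of all genes were called), and with either knockout array left out only ID1 and ID3 did. In those fits with a single knockout array, which is assumed to vary like the controls, 2.88% (without knockout 1) and 2.57% (without knockout 2) of all genes were called.

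**Figure D3:**
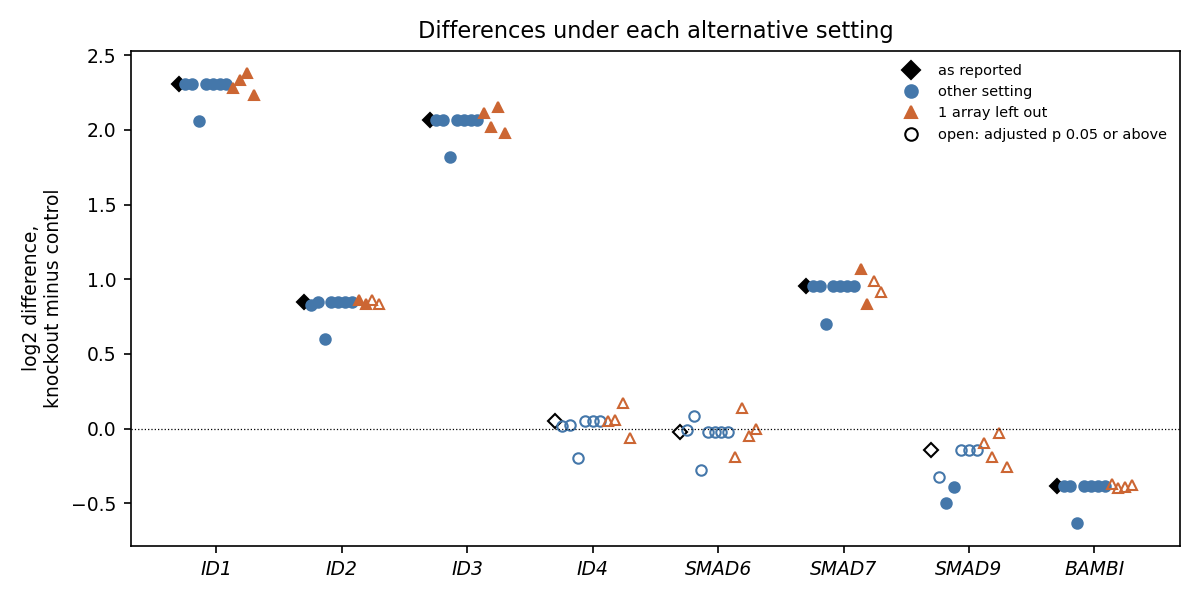
Log2 difference, knockout minus control, of the 8 genes as reported (black diamonds), under other settings (blue circles) and with 1 of the 4 arrays left out (orange triangles); open symbols have an adjusted p of 0.05 or above. ID1 and ID3 are filled in every setting, ID2 and SMAD7 turn open with a knockout array left out, and BAMBI turns open with any array left out. The lowest blue circles of ID1, ID2, ID3, SMAD7 and BAMBI are the reference gene scaling. For ID1, ID2 and ID3, which have no gene-specific probe set, the circle of that run repeats the reported value.

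The rest of the pathway was read from 9 lists of ligands, receptors, SMADs, inhibitors, targets and ID partners, with 88 of 98 listed genes measured. Of these, 7 rose and 17 fell, 27.3% in all, against 24% of all genes (12.4% higher and 11.5% lower), and the median difference was 0.02, against -0.01. Of 12 measured BMP ligands 0 rose and 2 fell in limma, with a list median of 0.09. Means of 8 of the 12 lay below the median gene's mean of 5.97, and whether these exceeded background is not known. BMP2, a ligand of the BMP type I and type II receptors, read 7.49 and 7.58 in control and 6.56 and 6.82 in knockout cells, and fell by 0.84 on the log2 scale (adjusted p = 0.0064). BMP4, its close relative, gave 8.18 and 8.10 against 7.83 and 7.71, and fell by 0.37 (adjusted p = 0.035). Knockout arrays lay below the controls for both ligands. The BMP2 call was lost without control 2 (-0.80, adjusted p = 0.058), knockout 1 (-0.71, 0.066) or knockout 2 (-0.97, 0.053). BMP4 was no longer called without any 1 of the arrays (-0.43 to -0.31, adjusted p 0.093 without control 2 to 0.21 without knockout 2) and when p-values were adjusted over all probe sets (0.073).

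Of 10 measured BMP receptors and co-receptors 0 rose and 2 fell, where 12.4% and 11.5% of all genes did. The list median was -0.10. BMPR1A is not among these 10, and BMPR1B was dim (2.89 and 2.99, control and knockout means). Means of 5 of the 10 lay below the median gene's mean. ACVR2B, a type II receptor, went from 7.74 ± 0.02 to 7.02 ± 0.0013 (SD, n = 2), and fell by 0.72 (adjusted p = 0.0033, limma). RGMB, a membrane co-receptor of BMPs, went from 7.96 ± 0.06 to 7.46 ± 0.15, and fell by 0.50 (adjusted p = 0.022, limma). The type II receptor BMPR2 gave 0.30 and the type I receptor ACVR1 -0.17, and neither passed the test as reported. The list had 1 gene called higher among brighter genes alone and with an intensity trend, where 56.3% and 29.3% of genes tested were called. It had 6 called lower under reference gene scaling, where 43% of all genes were called, 7280 of 19775 lower. ACVR2B lost its call without knockout 1 or knockout 2 (-0.72 in both, adjusted p 0.061 and 0.063), and was -0.45, still called, when its probe sets were averaged. RGMB lost its call with any 1 array left out (-0.60 to -0.39, adjusted p up to 0.14 without knockout 1) and when its probe sets were averaged (-0.29, 0.056).

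Of the 5 SMADs that carry the signal, 1 rose and 2 fell, where 12.4% and 11.5% of all genes did. None of the 5 had a mean below the median gene's mean. SMAD1 read 8.41 and 8.48 in control and 7.63 and 7.80 in knockout cells, and fell by 0.73 (adjusted p = 0.0057, limma). SMAD5, which is activated by the same receptors, read 8.52 and 8.65 against 9.10 and 8.95, a rise of 0.43 (adjusted p = 0.030, limma). SMAD3 of the TGF-beta branch fell by 0.42 (adjusted p = 0.023, limma). The shared partner SMAD4 (-0.01) and SMAD2 (-0.21) did not pass the test as reported. These SMADs had 3 called lower among brighter genes alone, where 2569 of 9887 genes were lower. They had 3 called lower under reference gene scaling too, where 7280 of 19775 genes were lower. With the mean of probe sets, and with adjustment over all probe sets, 1 was called lower. Of all genes, 22.3% and 17.3% were called in either direction there. SMAD1 lost its call without control 2 (-0.69, adjusted p = 0.050), knockout 1 (-0.64, 0.070) or knockout 2 (-0.81, 0.059). SMAD5 and SMAD3 lost theirs with any 1 array left out (0.36 to 0.51 and -0.48 to -0.36, adjusted p up to 0.18 and 0.16, both without knockout 1). Under reference gene scaling SMAD5 was 0.18 (adjusted p = 0.18), and with probe sets averaged SMAD3 was -0.23 (adjusted p = 0.099).

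Genes listed as secreted BMP antagonists showed no call among 14 measured in limma, and the median was 0.04. Means of 11 of the 14 lay below the median gene's mean, and whether these exceeded background is not known. The largest differences were those of FSTL3 (0.35, adjusted p = 0.11) and NBL1 (-0.28, adjusted p = 0.15). FSTL3 was called higher among brighter genes alone (adjusted p = 0.035) and with an intensity trend (0.048), and NBL1 lower under reference gene scaling (-0.53, 0.017). Under that scaling FSTL3 was 0.098. With 1 array left out, FSTL3 ran from 0.20 without control 2 to 0.49 without control 1, and NBL1 from -0.38 without knockout 2 to -0.18 without knockout 1; neither was called there. Of 12 measured intracellular regulators of SMADs, 0 rose and 6 fell in limma, with a median of -0.25, where 11.5% of all genes fell. None of the 12 had a mean below the median gene's mean. In the fit to brighter genes alone 6 were lower, where 2569 of 9887 genes were. With gene-specific probe sets (20.8% of all genes called) 1 regulator was higher and 1 lower, and with the mean of probe sets (22.3%) 1 and 2. Adjusted over all probe sets (17.3%) they were 0 and 2, and under reference gene scaling (43%) 0 and 9. Without control 1 there was 1 lower, without control 2 there were 2, and with either knockout array left out 0. SMURF2 and SMURF1, ubiquitin ligases that SMAD7 brings to receptors, fell by 0.56 (adjusted p = 0.0070) and 0.41 (adjusted p = 0.047, both limma). The ligases NEDD4L and RNF111 fell by 0.50 (adjusted p = 0.047) and 0.40 (adjusted p = 0.018, both limma). SMURF2 read 9.77 and 9.71 on control arrays and 9.18 and 9.20 on knockout arrays, without overlap. SMURF2 lost its call without knockout 1 (-0.55, adjusted p = 0.082) or knockout 2 (-0.57, 0.085) and with its gene-specific probe set (-0.32, 0.060), and RNF111 with any 1 array left out (-0.44 to -0.37). With any 1 array left out NEDD4L (-0.65 to -0.36) lost its call. SMURF1 lost its call without control 1 (-0.29), knockout 1 (-0.38) or knockout 2 (-0.44). With the mean of probe sets NEDD4L was -0.19 (adjusted p = 0.24) and SMURF1 -0.12 (0.41).

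**Figure D4:**
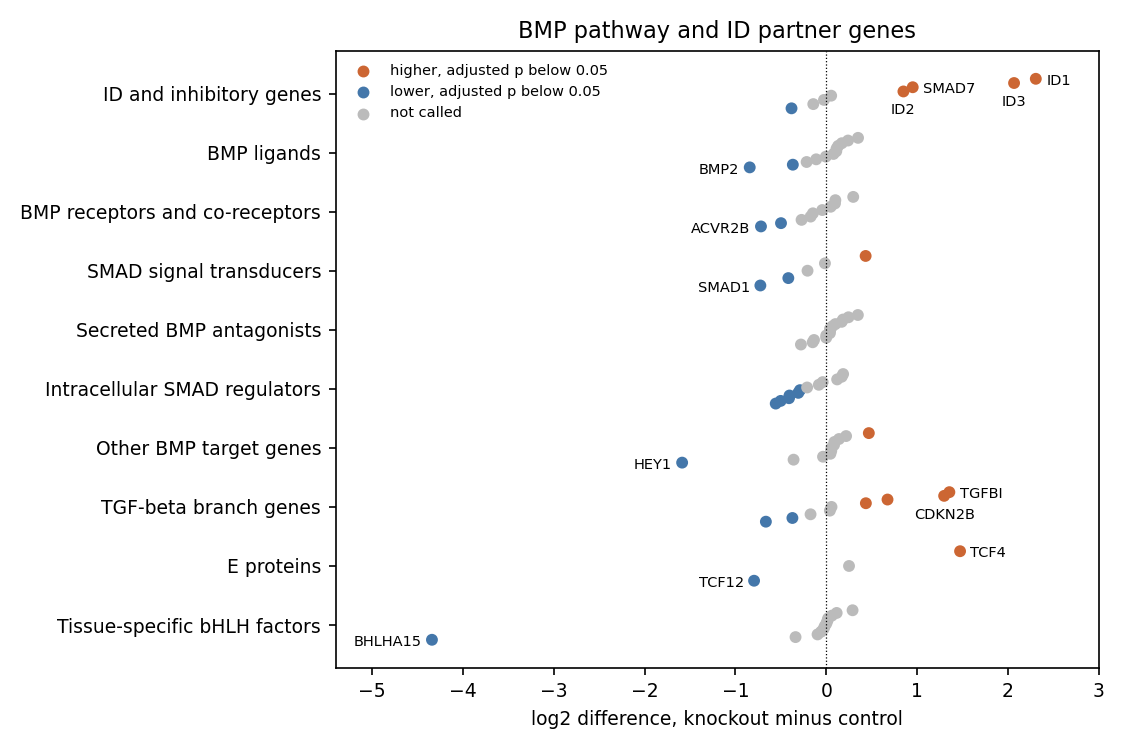
Log2 difference, knockout minus control, of each measured gene (1 point a gene, n = 2 arrays a group) in the ID and inhibitory genes and 9 pathway and partner lists; orange and blue points passed an adjusted p below 0.05 in limma, and called genes with differences beyond 0.7 are named. ID1 and ID3 stand farthest to the right, and BHLHA15 and HEY1 farthest to the left.

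Of 11 other measured targets of the BMP branch, 1 rose and 1 fell, and the median was 0.06. Means of 10 of the 11 lay below the median gene's mean, which limits what can be seen. HEY1, a bHLH repressor induced by both Notch and BMP signals, read 6.35 and 6.47 in control and 4.86 and 4.79 in knockout cells, and fell by 1.59 (SE 0.08; adjusted p = 0.00064, limma). MSX2, a homeobox factor, rose by 0.47 (adjusted p = 0.011, limma), but its gene-specific probe set gave -0.02 (adjusted p = 0.95). MSX2 was also no longer called without any 1 of the arrays (0.45 to 0.49, adjusted p 0.052 without control 2 to 0.11 without knockout 2) and under reference gene scaling (0.22, 0.073). In the TGF-beta branch list, 4 of 9 measured genes rose and 2 fell, where 12.4% of all genes rose and 11.5% fell. The list median was 0.06. The mean of 1 of the 9 lay below the median gene's mean, and in the fit to brighter genes alone 56.3% of genes were called. The matrix protein TGFBI rose by 1.36 (SE 0.13), the cell-cycle inhibitor CDKN2B by 1.30 (SE 0.08) and CCN2 by 0.67 (SE 0.14), while SKIL, a SMAD co-repressor, fell by 0.66 (SE 0.09); adjusted p-values in limma were 0.0029, 0.00084, 0.024 and 0.0058. CDKN2B kept its call in every alternative run. TGFBI lost its call without knockout 2 (1.20, adjusted p = 0.052), SKIL without knockout 1 (-0.68, 0.074) or knockout 2 (-0.64, 0.085) and when its probe sets were averaged (-0.22, 0.13), and CCN2 with any 1 array left out (0.48 to 0.86) and under reference gene scaling (0.42, 0.058).

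Of the 3 E proteins that ID proteins bind, 1 rose and 1 fell, where 12.4% and 11.5% of all genes did. TCF4 read 4.68 and 4.60 in control and 6.35 and 5.87 in knockout cells, a rise of 1.47 (SE 0.17), or 2.78-fold (adjusted p = 0.0040, limma). Its control level lay below the median gene's mean of 5.97, so the fold is approximate, and without control 2 the call was lost (1.43, adjusted p = 0.050). TCF12 went from 9.07 ± 0.09 to 8.27 ± 0.06 (SD, n = 2), and fell by 0.79 (SE 0.09; adjusted p = 0.0038, limma). TCF3, which encodes E12 and E47, gave 0.25 and did not pass the test as reported (adjusted p = 0.070, limma). With an intensity trend 2 of the 3 E proteins were called higher, where 29.3% of all genes were called in either direction. TCF12 lost its call without knockout 1 (-0.84, adjusted p = 0.060) or knockout 2 (-0.75, 0.069), and with its probe sets averaged was -0.18 (adjusted p = 0.45). Of 12 measured tissue-specific bHLH factors, 9 with means below the median gene's mean, 0 rose and 1 fell. That gene, BHLHA15, a factor of secretory cells, read 9.37 and 9.19 in control and 4.90 and 4.97 in knockout cells, and fell by 4.34. The knockout means of BHLHA15 (4.94) and HEY1 (4.83) and the control mean of TGFBI (5.42) lay below the median gene's mean too, so these differences are approximate.

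By Euclidean distance between profiles over the 4 arrays, each centred on its control mean, the genes nearest to ID1 among 9886 other genes above the median gene were SNCAIP (0.088), ERP27 (0.11) and CXCL2 (0.12). SNCAIP, a synuclein-binding protein, rose by 2.31, ERP27, an endoplasmic reticulum protein, by 2.28, and the chemokine CXCL2 by 2.33. With gene-specific probe sets SNCAIP was 0.34 (adjusted p = 0.056) and CXCL2 1.25, and with probe sets averaged they were 1.52 and 1.31, so their nearness to ID1 depends on the probe set. The cut at the median gene used the mean over all 4 arrays. The control mean of ERP27 (4.93) lay below that cut, and its knockout mean (7.21) above it. ERP27 thus entered the search only through its high knockout values, and its difference is approximate. Distance here rests on 4 arrays, and any gene with a rise of this size and little spread lies near ID1.

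Array medians of all 54613 probe sets lay between 5.01 and 5.02. PRMT6 itself was 8.03 and 8.11 in control and 7.79 and 7.63 in knockout cells, and fell by 0.36 (adjusted p = 0.043, limma). Without any 1 of the arrays PRMT6 no longer passed (-0.44 to -0.28). Since where its probe set lies relative to the edit is not given in the sources used here, it is no check of the knockout. The epithelial markers KRT18 (13.27 and 13.23, control and knockout means) and EPCAM (12.54 and 12.46) were bright in both groups; of 9 measured epithelial markers 2 rose and 2 fell, with mean levels of 9.73 to 9.83 per array. Fibroblast markers had mean levels of 4.62 and 4.75 on control and 4.95 and 5.01 on knockout arrays. In limma 4 of 10 were higher and 1 lower, where 12.4% and 11.5% of all genes were. COL1A1 (8.58 to 10.13, control to knockout mean) was higher and PDGFRA (9.12 to 8.26) lower. The other rises were of dim probe sets: LUM (2.38 to 3.75), COL3A1 (2.78 to 3.80) and FAP (2.75 to 3.11). Endothelial markers (0 of 6 called, mean levels 4.25 to 4.43) and immune markers (0 of 4 called, 5.69 to 6.20) did not pass the test, and PTPRC, the defining immune marker, stood at 2.74 and 3.22; LYZ, which gastric epithelium also makes, stood at 12.83 and 11.83. The part of these marker differences in the results was not tested. Of 10 measured reference genes 5 were called higher, against 12.4% of all genes. Scaling arrays to the mean of the reference genes took the median difference over all genes from -0.01 to -0.26. Under it ID1 rose by 2.06, ID3 by 1.82, SMAD7 by 0.70 and ID2 by 0.60, all still called; the share of rises among all calls went from 51.9% to 14.5%. In bulk samples, fewer cells making a transcript and less of it per cell cannot be told apart.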

How the data were processed

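RNA of 4 samples was measured on single-colour arrays after 3′ labelling. The authors deposited log2 intensities of 54613 probe sets, made with RMA and the affy package per the submitters' processing notes, where neither has a version. That the scale is log2 follows from the range of the values (1.64 to 14.16). RMA corrects background, quantile-normalizes arrays and compresses differences of dim probe sets, so every difference is relative to other transcripts. For arrays, their number limits the precision, and read depth does not apply.

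Samples were grouped by their titles. Symbols came from the platform annotation, updated by Entrez number to RefSeq GRCh38.p14; 41091 probe sets had 1 symbol. Each of 19775 genes was represented by its brightest probe set. The test was limma 3.58.1 (R 4.3.3; lmFit and eBayes on all 4 arrays, 2 residual degrees of freedom), with Benjamini-Hochberg adjustment over all genes and a call at adjusted p below 0.05. An exact two-sided permutation test of 2 against 2 arrays cannot go below 0.333, so none was used. The fit was tested on simulated data.

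The members and lists were chosen with earlier results of these data known. Named genes were the 8 members, PRMT6, up to 4 called genes of each list with the largest difference (or the 2 largest where none was called), and the 3 profiles nearest to the member with the largest difference. BMPR2, ACVR1, SMAD2, SMAD4, TCF3 and the named markers fall outside this rule and were chosen after their values were seen. Alternatives were the mean of probe sets, the gene-specific probe set (an ID ending in _at with no letter before it), reference gene scaling (10 of the 13 listed genes were measured), brighter genes only, an intensity trend, adjustment over all probe sets, a replicate block and leaving out each array. Genes without a gene-specific probe set kept their brightest one in that run.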

Additional observations from a re-analysis of the deposited data

Results flagged for a closer look

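Another probe set that reads ID2 was left out above because the annotation gives it both ID2 and ID2B, a related locus. It read 7.93 and 7.87 on the control arrays and 8.75 and 8.93 on the knockout arrays, 0.94 higher on the log2 scale in knockout cells (adjusted p = 0.0085, limma over all probe sets). It was looked at again because its signal lies outside the values compared above and exceeds both control arrays. Transcripts of ID2 and ID2B cannot be told apart on it. Groups of 2 arrays are too small to look for a single array that stands apart.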

How the results depend on the processing

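ID1 and ID3 kept their direction and call in every alternative run. ID2 and SMAD7 did so in all but the fits without knockout 1 or knockout 2, and BAMBI in all but those that leave out 1 array. ID1, ID3, SMAD7 and BAMBI have 1 probe set each, so averaging probe sets left their differences as reported. ID1, ID2 and ID3 have no gene-specific probe set, so the gene-specific run was no check of their rises. With 1 array left out, ID2 ranged from 0.84 to 0.86, SMAD7 from 0.84 to 1.07, BAMBI from -0.40 to -0.37, SMAD9 from -0.26 to -0.029, ID4 from -0.064 to 0.17 and SMAD6 from -0.19 to 0.14. Neither ID4 nor SMAD6 passed the test anywhere; ID4 changed sign under reference gene scaling (-0.20) and SMAD6 with its gene-specific probe set (0.084). SMAD9 became called lower with its gene-specific probe set (-0.50) and under reference gene scaling (-0.39). MSX2 was -0.018 with its gene-specific probe set. Of the 8 members, 2 to 4 were higher and 0 lower with 1 array left out, and 2 were lower with gene-specific probe sets and under reference gene scaling. Over all genes, 2459 were higher and 2281 lower as reported, 154 to 1371 and 354 to 1258 with 1 array left out, and 1233 and 7280 under reference gene scaling. In the 9 lists, 7 and 17 became 3 and 32 under reference gene scaling, and 2 to 3 and 2 to 8 with 1 array left out. There, 11 were higher with an intensity trend, 8 lower with the mean of probe sets, and 10 lower with adjustment over all probe sets. In that order, 29.3%, 22.3% and 17.3% of all genes were called in those runs. The causes were not tested. A fit with 1 array left out has fewer degrees of freedom, and the part of this in the lost calls was not tested either. By their titles same-numbered arrays shared a number, and whether they shared a culture or batch is not given. Across genes, r of their deviations from the group means was 0.052. With the replicate block 3972 genes were called against 4740, and the 5 called members kept their calls (BAMBI adjusted p = 0.044). Of the 12 intracellular SMAD regulators 2 were lower under that block, and SMAD5, NEDD4L, SMURF1 and PRMT6 lost their calls (adjusted p 0.057, 0.078, 0.069 and 0.076) and, with BMP4 and SMAD3, when adjusted over all probe sets; with gene-specific probe sets NEDD4L was -0.15 (adjusted p = 0.47), SMURF1 0.055 and PRMT6 0.052 by adjusted p. Of 24 called genes named outside the members, 5 kept their call in every alternative run and 18 lost it with some array left out. These 24 are the genes named by the rule given above. The called markers COL1A1, PDGFRA, LUM, COL3A1 and FAP are not among them and were not followed through the alternative runs. Dim probe sets, those of ID4 and SMAD9 among them, limit what can be seen.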
